A study of Mus musculus with 21 samples.

Results

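Open chromatin was compared between VDR cells treated with an siRNA against Nfib (siNfib) and VDR cells treated with a control siRNA (siNC). The comparison takes 3 siNfib and 3 siNC libraries, 6 of the 21 libraries of the series, and the 100000 summits of highest score in each list. VDR is described in the labels as a mouse medulloblastoma line, so all 6 libraries share 1 genetic background. VDR cells treated with an siRNA against Nfia (siNfia, 3 libraries) are set beside them, as are untreated VDR cells and cells that were sorted for EGFP out of the cerebellum of Atoh1-EGFP mice: GNP at postnatal day 7 (granule neuron progenitors, whose titles read Ptch1GNP), hyperplasia at postnatal day 28, and tumors, with 3 libraries each. The dose of the siRNAs, the time after treatment and the genetic origin of VDR are not given in the sources used here. The lists carry names that start with sh, although the labels speak of siRNA. Nor do the labels say whether replicates were separate cultures, so p-values measure only the spread between these libraries, which may be technical.

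NFIB is 1 of the 4 nuclear factor I proteins (NFIA, NFIB, NFIC and NFIX), transcription factors that bind DNA as dimers at a palindrome whose arms are TTGGC and its reverse complement GCCAA. NFI factors act in the differentiation of cerebellar granule neurons, and in several cell types they are known for opening or holding open chromatin away from gene starts. Medulloblastoma of the Sonic hedgehog type arises from granule neuron progenitors, which divide under Hedgehog signalling and are specified by Atoh1. ATAC-seq marks DNA that a transposase can reach, and a summit is the position where the signal of a called peak is highest. An siRNA acts on the mRNA, so accessibility at Nfib is no check of the knockdown, and the depth of the knockdown was not analysed here.

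The siNC lists held 192817, 228691 and 221755 summits and the siNfib lists 218177, 206240 and 279584. Read depth is unknown. The score of the summit at rank 100000, a stand-in for the strength of a list, was 4.95, 5.96 and 9.61 in siNC and 8.25, 8.36 and 17.4 in siNfib. The siNfib lists were thus the stronger on average, with an overlap between the groups, and siNC 1 and siNfib 3 stood at the ends. Kept summits of all libraries were merged into 271851 regions of 500 bp, and a region counted as occupied where a library had a kept summit in it. Rank 1 is the strongest summit of a list. Summits of equal score share their mean rank, so that a printed rank can pass 100000 slightly. Some granule lineage genes carried summits in VDR cells and others few or none. Atoh1, the factor that specifies granule progenitors, had 16, 18 and 17 occupied regions in siNC and 18, 18 and 19 in siNfib. Zic1 had 13, 14 and 15 and then 12, 15 and 13, and Barhl1 had 9, 8 and 9 and then 8, 7 and 8. Neurod1 had 2, 4 and 3 and then 2, 2 and 2, against 9, 10 and 10 in GNP. Gabra6 had 0 in all 21 libraries of the series, GNP and tumor included, so its count is not particular to VDR cells. The Hedgehog factor Gli3 had 1, 0 and 0 in siNC and 0 in each siNfib library. It had 12, 11 and 12 in GNP, 14, 17 and 12 in hyperplasia and 3, 3 and 3 in tumor. Summed over marker lists of other cell types, occupied regions numbered 36 to 38 in siNC and 38 to 41 in siNfib for 9 astrocyte genes, 30 to 34 and 34 to 38 for 10 oligodendrocyte genes, 11 to 20 and 10 to 15 for 10 microglia and immune genes, 31 to 33 and 32 to 33 for 10 endothelial and mural genes, and 63 to 67 and 55 to 63 for 18 fibroblast and mesenchyme genes. No region was occupied in any of the 6 libraries at Aqp4, Apoe and Aldoc (astrocytes), Mag (oligodendrocytes), Csf1r and Itgam (microglia), Rgs5 (mural cells) or Prrx2 (mesenchyme). The part of other cell types in the results was not tested.

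The comparison asked where open chromatin in medulloblastoma cells depends on Nfib. After siNfib, strong summits away from gene starts dropped far down the lists and other distal summits climbed. Among the 33028 regions occupied in all 9 siRNA libraries, 1708 (5.17%) ranked lower after siNfib and 990 (3.00%) ranked higher at an adjusted p below 0.05 (limma on the normal score of the rank, Benjamini-Hochberg). The normal score turns the rank among these regions into a standard normal value, higher for a stronger summit, so a change of 1 is 1 SD of all regions. The median change over the 33028 regions was 0.03. Ranks did not overlap between siNC and siNfib in 2650 of the 2698 changed regions, against 8259 (25.0%) of all 33028.

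The siNfib lists were stronger on average, and the score at rank 100000 moved in part with the group. With that score as a covariate, 1376 regions passed, 878 lower and 498 higher, of which 1334 were among the 2698. Without siNfib 3, 1730 regions passed.

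Gene starts were where the DNA sequence could be set beside a change. The windows below are the 250 bases upstream of gene starts that a changed region overlapped, from RefSeq on GRCm38.p6, the mm10 assembly, 5′ to 3′ on the strand of the gene. Capitals mark each arm of the palindrome, TTGGC or GCCAA, and the rest is in lower case.

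The first pair ranked lower after siNfib. Gm31115, a gene of unknown function, has its window at chr4:64282468-64282717 on the plus strand. Ucma, which encodes a cartilage matrix protein, has its window at chr2:4975872-4976121 on the plus strand.

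Gm31115: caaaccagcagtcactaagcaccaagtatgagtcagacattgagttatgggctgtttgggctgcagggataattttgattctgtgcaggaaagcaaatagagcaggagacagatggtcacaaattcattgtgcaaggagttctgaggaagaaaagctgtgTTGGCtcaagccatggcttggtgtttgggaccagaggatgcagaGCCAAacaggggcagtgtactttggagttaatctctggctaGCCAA

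Ucma: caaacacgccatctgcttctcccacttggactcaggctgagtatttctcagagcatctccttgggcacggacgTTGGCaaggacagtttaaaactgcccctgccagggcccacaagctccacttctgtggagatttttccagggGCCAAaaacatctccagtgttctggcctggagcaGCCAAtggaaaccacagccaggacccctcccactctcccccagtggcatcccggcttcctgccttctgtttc

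The second pair ranked higher after siNfib. Gm33596 has its window at chr17:80809435-80809684 on the minus strand. The window of 1700054K19Rik lies at chr6:112210458-112210707 on the plus strand.

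Gm33596: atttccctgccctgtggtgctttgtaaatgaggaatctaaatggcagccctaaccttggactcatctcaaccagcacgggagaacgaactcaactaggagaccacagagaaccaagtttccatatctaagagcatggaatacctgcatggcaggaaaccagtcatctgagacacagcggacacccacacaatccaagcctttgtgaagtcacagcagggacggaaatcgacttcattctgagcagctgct

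1700054K19Rik: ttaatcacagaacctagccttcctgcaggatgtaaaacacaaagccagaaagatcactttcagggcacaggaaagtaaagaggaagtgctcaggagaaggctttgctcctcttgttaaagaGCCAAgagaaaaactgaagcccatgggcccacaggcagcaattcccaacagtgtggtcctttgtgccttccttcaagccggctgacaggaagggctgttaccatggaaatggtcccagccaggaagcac

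The third pair lay in regions that only siNfib libraries occupied among the 6. Ptprg, a receptor tyrosine phosphatase, has its window at chr14:12189693-12189942 on the plus strand. Eml1, a microtubule-associated protein, has its window at chr12:108410383-108410632 on the plus strand.

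Ptprg: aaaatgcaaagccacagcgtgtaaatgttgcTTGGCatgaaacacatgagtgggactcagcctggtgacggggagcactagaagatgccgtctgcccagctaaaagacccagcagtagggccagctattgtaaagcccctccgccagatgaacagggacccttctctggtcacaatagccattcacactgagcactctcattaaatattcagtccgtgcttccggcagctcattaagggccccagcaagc

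Eml1: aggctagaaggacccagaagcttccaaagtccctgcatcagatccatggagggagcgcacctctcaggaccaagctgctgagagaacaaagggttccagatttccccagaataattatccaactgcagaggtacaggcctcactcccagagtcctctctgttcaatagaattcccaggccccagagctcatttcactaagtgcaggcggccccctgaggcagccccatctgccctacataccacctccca

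The last pair lay in regions that only siNC libraries occupied among the 6. Pole3, a subunit of DNA polymerase epsilon, has its window at chr4:62525015-62525264 on the minus strand. The window of Gm33699 lies at chr9:61031981-61032230 on the plus strand.

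Pole3: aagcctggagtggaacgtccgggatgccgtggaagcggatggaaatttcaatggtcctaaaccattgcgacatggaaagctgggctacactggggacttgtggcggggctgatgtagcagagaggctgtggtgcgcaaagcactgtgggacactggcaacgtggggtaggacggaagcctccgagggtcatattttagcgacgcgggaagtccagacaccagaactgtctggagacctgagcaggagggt

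Gm33699: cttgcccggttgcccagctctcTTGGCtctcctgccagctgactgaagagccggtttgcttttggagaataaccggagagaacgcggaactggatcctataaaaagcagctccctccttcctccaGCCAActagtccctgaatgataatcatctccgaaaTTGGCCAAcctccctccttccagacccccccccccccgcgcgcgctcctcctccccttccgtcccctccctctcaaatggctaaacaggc

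The window of Gm31115 held 3 arms, that of Ucma 3 and that of Gm33699 4, of which 2 overlap in a run that reads the same on both strands. Those of 1700054K19Rik and Ptprg held 1 each, and those of Gm33596, Eml1 and Pole3 held none. None of the 8 held the whole palindrome with 5 free bases between its arms. The other leading windows of each set are not printed. Near regions of lower rank, those of Gm30764 and Gm51481 held no arm. Near regions of higher rank, that of Gm31391 held none and that of Haus4 held 1. Where only siNfib libraries occupied the region, those of Rcan2 and Gm36208 held none. Where only siNC libraries did, those of Vapa and 4930447F24Rik held 1 each. The summit at the start of Gm31115 ranked 140, 126 and 330 in siNC and 267, 208 and 124 in siNfia. In siNfib it ranked 31704, 46206 and 27442. No siNfib library came near the other 6, and the normal score fell by 3.07 (SE 0.188, adjusted p 2.42e-12). The Ucma region ranked 27674, 15901 and 23763 in siNC and 99633, 94187 and 57829 in siNfib, where the score fell by 2.28 (SE 0.45, adjusted p 0.00087). The Gm33596 region moved the other way, from 34261, 75762 and 63937 in siNC to 4750, 5099 and 6284 in siNfib (change 2.37, SE 0.31, adjusted p 3.42e-06). The 1700054K19Rik region ranked 55773, 21623 and 57961 in siNC and 4318, 5266 and 5932 in siNfib (change 1.95, SE 0.315, adjusted p 7.37e-05). For Ptprg the siNfib ranks were 13427, 11997 and 17192, and for Eml1 they were 10363, 14592 and 21888. The Pole3 region ranked 17048, 14990 and 9557 in siNC and that of Gm33699 ranked 34261, 21623 and 25687. In the other group, summits that were not kept lay in the Pole3 region in 3 lists and in that of Gm33699 in 2. Those of Ptprg and Eml1 each had one in 1 siNC list.

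Arms were then counted in the whole promoter windows of the table, which reach a short way past the gene start, on both strands. An arm was present in 46.7% of all 32851 windows. It was present in 54.5% of the 66 windows whose gene start lay within 1 kb of a region of lower rank, in 51.9% of the 156 near a region of higher rank, and in 51.2% of the 11364 near a region occupied in all 9 siRNA libraries. Near a lost region 60.4% of 134 windows held one, and near a gained region 42.9% of 266. The whole palindrome was in 12 (0.0365%) of all windows and in none of these 4 sets. Regions away from gene starts carry most of the change, and their sequence was not analysed here.

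Changed regions lay mostly away from gene starts. Of the regions occupied in all 9 siRNA libraries, 36.5% had their centre within 1 kb of a gene start. That share was 3.37% (56 of 1663) for regions of lower rank and 12.8% (123 of 961) for regions of higher rank. Chromosome 18, which the table of gene starts leaves out, was left out of these shares. About as many changed regions as others lay inside a protein-coding gene body: 50.6% of the lower, 54.9% of the higher and 56.6% of all 33028. No protein-coding gene lay within 100 kb of 16.8% of the lower and 13.9% of the higher regions, against 5.94% of all.

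**Figure D1:**
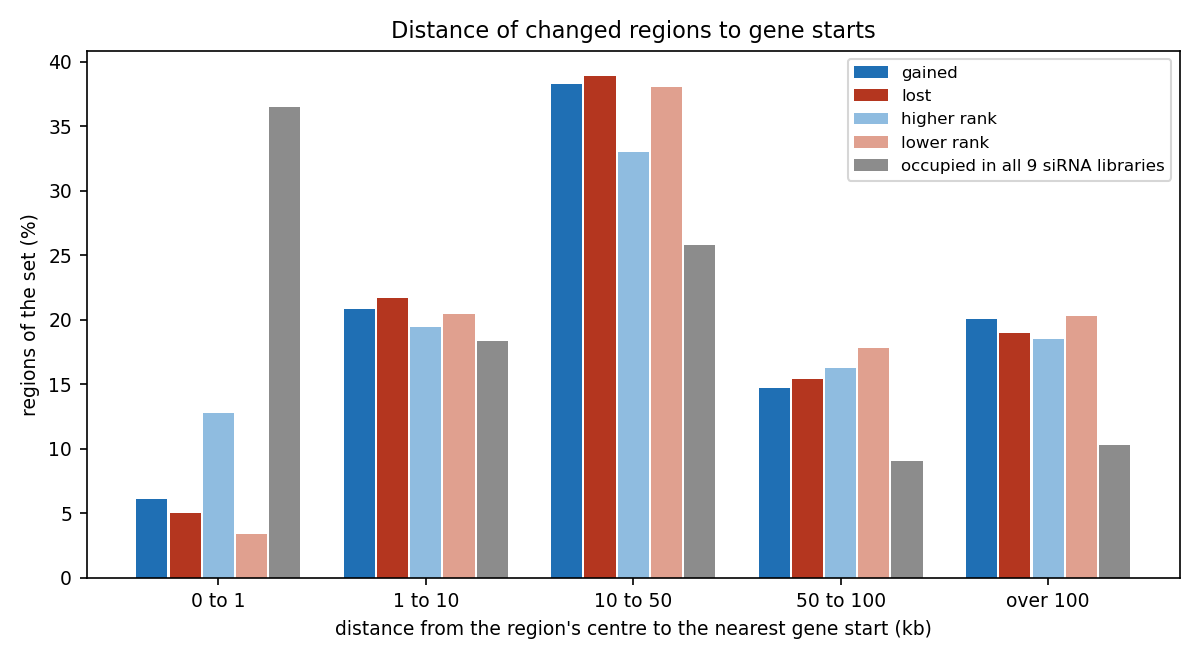
Share of regions (y axis, %) by the distance from the region's centre to the nearest gene start (x axis, kb), for gained, lost, higher-rank and lower-rank regions and for the regions occupied in all 9 siRNA libraries. In the class nearest to a start the grey bar stands at 36.5% and the lower-rank bar at 3.37%, and in the classes beyond 10 kb the grey bar is the lowest.

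**Figure D2:**
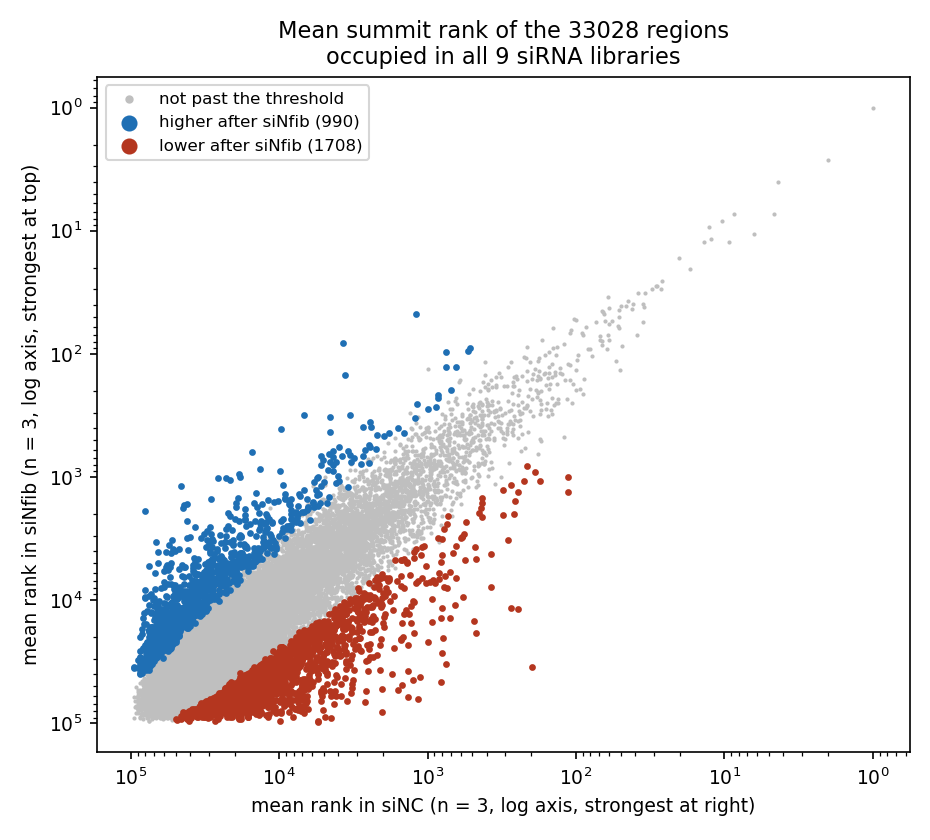
Mean rank in siNC (x axis) against mean rank in siNfib (y axis), n = 3 libraries each, log axes with the strongest summits at the top right, for the 33028 regions occupied in all 9 siRNA libraries. Red points are the 1708 regions of lower rank after siNfib and blue points the 990 of higher rank, and both reach from the middle of the lists to ranks under 1000.

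The regions with the largest drops moved from near the top of the siNC lists to the end of the siNfib lists. A region was given the smallest protein-coding gene body that holds its centre, or else the nearest gene within 100 kb. The largest change was inside the body of Agbl1, a cytosolic carboxypeptidase of the tubulin-modifying family, at chr7:76791290-76791789. Its ranks were 4004, 4858 and 7663 in siNC, 1859, 3394 and 2998 in siNfia, and 99633, 101519 and 90670 in siNfib. All 3 siNfib libraries lay below all 6 others, and the normal score fell by 3.94 (SE 0.305, adjusted p 2.48e-10). Ranks of 99633 in siNfib 1 and 101519 in siNfib 2 belong to the tied summits of lowest kept score. Of these, 4023 of 7311 and 2441 of 7918 were kept in random order. Whether a region with such a rank entered the fit could thus depend on that order. At chr10:95033316-95033815, 88551 bp from Plxnc1, a semaphorin receptor, the ranks were 2265, 2243 and 8869 in siNC and 92820, 82146 and 97963 in siNfib. The score fell there by 3.80 (SE 0.323). A region at chr4:70035908-70036407, with no protein-coding gene within 100 kb, went from 4674, 6078 and 5762 to 99633, 94187 and 92967 (change -3.78, SE 0.358). This was the single one of the 5 in which siNfia lay between the other groups, at 10996, 34373 and 23685. Near Cdc5l, a spliceosome component, the region at chr17:45312819-45313318 ranked 2092, 939 and 3042 in siNC and 92820, 82146 and 67200 in siNfib (change -3.68, SE 0.273). In Grm7, a metabotropic glutamate receptor, the region at chr6:111105517-111106016 ranked 5045, 5440 and 4177 in siNC and 92820, 87853 and 88472 in siNfib, where the score fell by 3.50 (SE 0.292). Tumor and GNP libraries also held most of these sites. The Agbl1, Plxnc1, Cdc5l and chromosome 4 regions were occupied in 3 of 3 libraries of GNP, hyperplasia and tumor, while the Grm7 region was occupied in 3 GNP, 0 hyperplasia and 1 tumor library.

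The largest climb was at chr16:73504713-73505212, with no protein-coding gene within 100 kb. Its ranks were 75772, 83545 and 83302 in siNC and 2433, 1522 and 1743 in siNfib, a change of 3.63 (SE 0.336, adjusted p 8.81e-09). The siNfia libraries lay between, at 33393, 28937 and 54744. At chr4:41641296-41641795, 1244 bp from Enho, which encodes the secreted peptide adropin, ranks went from 55773, 63345 and 83302 in siNC to 2368, 3286 and 4433 in siNfib (2.96, SE 0.348). A region at chr2:46506900-46507399 without a gene within 100 kb went from 92715, 53592 and 78823 to 7067, 4479 and 4376 (2.90, SE 0.421). In Rnf220, a ubiquitin ligase, the region at chr4:117373339-117373838 went from 64326, 92861 and 83302 to 6196, 13992 and 4768 (2.87, SE 0.405). The fifth was in Slco3a1, an organic anion transporter, at chr7:74523043-74523542, which went from 55773, 92861 and 93786 to 11566, 8204 and 9169 (2.81, SE 0.395). Ranks of siNC and siNfib did not overlap in any of these 10 regions. Their adjusted p lay between 1.24e-10 and 1.56e-05.

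**Figure D3:**
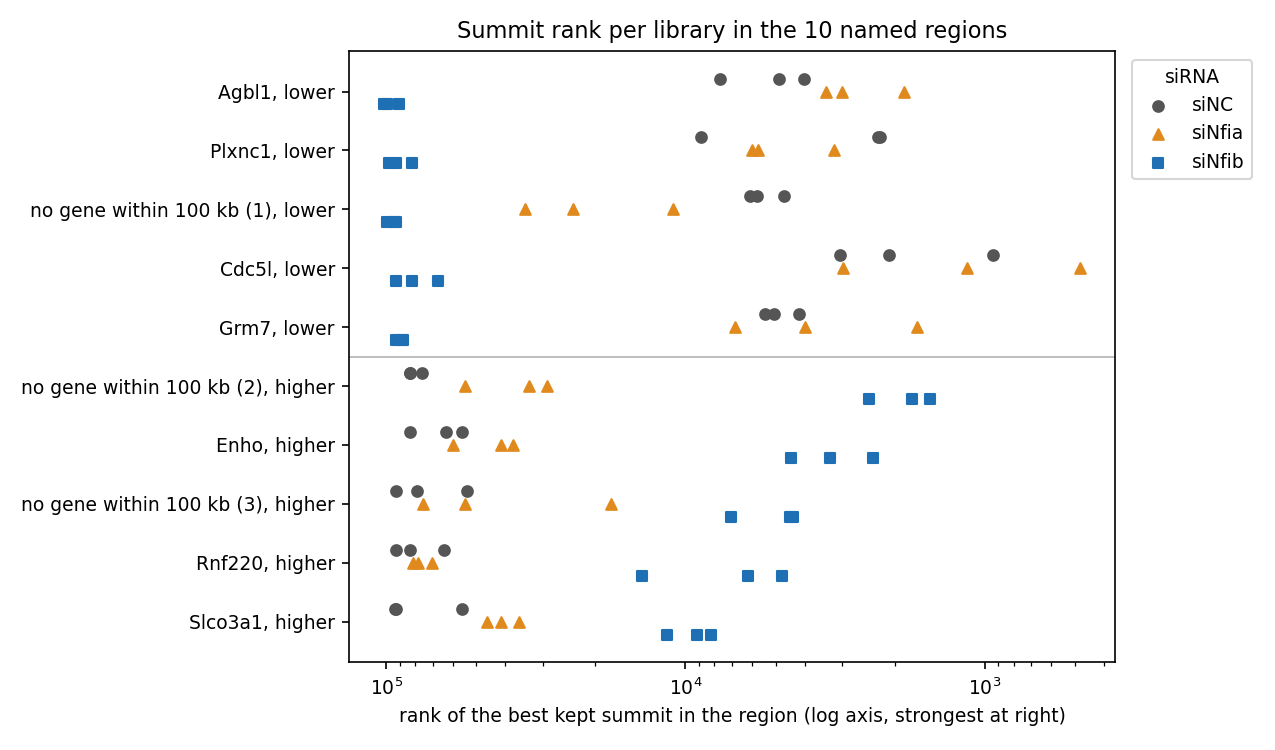
Rank of the best kept summit (x axis, log scale, strongest at right) in each library for the 5 regions with the largest drop and the 5 with the largest climb after siNfib, labelled by gene. Each point is 1 library, with circles for siNC, triangles for siNfia and squares for siNfib, and the squares stand apart from the circles in all 10 regions.

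The 2 knockdowns were then set against each other. Over all 33028 regions, 1331 (4.03%) ranked higher and 1895 (5.74%) lower in siNfib than in siNfia. The 10 named regions were chosen for their extreme values in the same siNfib libraries, so their values in this contrast are a description. The Agbl1 region was lower in siNfib than in siNfia by a score of -4.33, and the Slco3a1 region was higher by 1.44, the largest and the smallest size among the 10. The comparisons of siNfib and of siNfia with siNC share the siNC libraries, so their values are given side by side only. Of the 10, only the chromosome 16 region differed between siNfia and siNC (1.34, adjusted p 0.0317). Over the sets of changed regions, the siNfia libraries can be placed as a description. Regions of lower rank had a median rank of 10861, 10631 and 11816 in siNC, 12524, 13173 and 13658 in siNfia, and 45262, 43913 and 44728 in siNfib. Regions of higher rank had a median rank of 38375, 34383 and 33993 in siNC, 24374 to 24855 in siNfia, and 7801, 8204 and 8773 in siNfib. In siNfia the first set thus sat close to siNC, and the second lay between siNC and siNfib. The median over all 33028 regions was between 22017 and 23120 in these 9 libraries. The sets were chosen on siNC and siNfib ranks, and the siNfia libraries were part of the fit. In siNC the lower set already ranked stronger than all regions and the higher set weaker. No set matched on siNC rank was drawn, so their place in siNfia and in the other groups is a description too.

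The lower set also ranked high in cells outside the siRNA experiment. Where occupied, its regions had a median rank of 15303, 15102 and 14041 in tumor and 16263 to 16959 in GNP, and all 33028 regions had 21897 to 22529 in these 6 libraries. In hyperplasia the medians were closer, at 21513, 21685 and 18971 for the lower set and 22133, 21685 and 21926 for all. In untreated VDR cells the lower set had 11477, 12967 and 13676 and all regions 16025 to 16641. Regions of higher rank had medians of 24253 to 25087 in tumor and 27062 to 28171 in GNP. The share of lower-rank regions occupied was 92.2% ± 1.20 in tumor and 89.2% ± 0.844 in GNP (SD, n = 3 libraries), and of higher-rank regions 77.9% ± 1.99 and 74.6% ± 1.97. All 33028 regions were occupied at 87.5% ± 0.762 in tumor and 87.1% ± 0.343 in GNP. So the lower set lay above that level and the higher set below it in both, and the library ranges did not overlap. In hyperplasia the lower set overlapped all regions, at 85.4%, 86.2% and 88.9% against 85.7%, 86.2% and 86.5%. In untreated VDR cells the higher set did, at 73.2%, 63.9% and 74.5% against 74.0%, 65.0% and 77.3%. The higher set in hyperplasia lay below all regions, and the lower set in untreated VDR cells above them, without overlap. None of these comparisons was matched for the rank in siNC, on which the sets were chosen in part.

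Some of the strongest summits of the lists were among the changed regions. Of the 726 regions with a mean siNC rank up to 1000, 64 ranked lower after siNfib, and of the 784 with a mean siNfib rank up to 1000, 58 ranked higher. Over all 33028 regions, 5.17% ranked lower and 3.00% higher. Each class was picked on the rank in the group where its regions are strong. That leaves little room for the other direction, so the counts are not read against those shares. The 5 largest changes in each direction were looked up after the values were seen, and the start of Gm31115 given above led the drops. All 10 lay on chromosomes 4, 6, 8, 15 and 17. Together with chromosome 1 these held 69.8%, 72.2% and 76.7% of the 1000 best-ranked regions in siNC and 73.1%, 70.2% and 71.5% in siNfib, with an overlap between the groups. In Cntn6, a contactin that mediates adhesion of neurons, the region at chr6:104688528-104689027 ranked 1337, 445 and 664 in siNC, 981, 606 and 432 in siNfia, and 49852, 51433 and 38556 in siNfib. The score fell by 2.95 (SE 0.208, adjusted p 5.29e-11). In Lrrtm1, a postsynaptic adhesion protein, the region at chr6:77240371-77240870, 1856 bp from a gene start, ranked 494, 380 and 548 in siNC, 267, 348 and 346 in siNfia, and 14454, 22968 and 17703 in siNfib (change -2.03, SE 0.17, adjusted p 1.47e-09). Near Jagn1 the region at chr6:113451840-113452339 ranked 1006, 653 and 607 in siNC and 47489, 19514 and 31309 in siNfib. The last of the 5 drops was at chr17:68158320-68158819, away from protein-coding genes, where ranks of 1006, 1032 and 368 became 35997, 28616 and 16434.

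Among the climbs to the top, the region in Dok4, a docking protein of receptor tyrosine kinases, at chr8:94872163-94872662 went from 17048, 21623 and 17554 in siNC to 797, 1096 and 942 in siNfib. In siNfia it ranked 91371, 45446 and 23685, lower than in siNC in all 3 libraries, though that difference did not pass (-1.25, adjusted p 0.0539). Near Zdhhc21, a palmitoyltransferase, the region at chr4:82765672-82766171 went from 10861, 15901 and 18900 to 658, 505 and 727. The region in Srgap3, a GTPase activator of the Slit-Robo pathway, went from 5045, 2622 and 12700 to 366, 255 and 324 at chr6:112838797-112839296. The Srgap3 region was also occupied in all 9 libraries of GNP, hyperplasia and tumor. The Zdhhc21 region was occupied in 0 GNP, 3 hyperplasia and 0 tumor libraries.

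Regions were also gained and lost outright at a list length of 100000. Of the 107646 regions occupied in at least 1 of the 6 libraries, 3584 (3.33%) were occupied in 3 of 3 siNfib and 0 of 3 siNC libraries, and 2338 (2.17%) in 3 of 3 siNC and 0 of 3 siNfib libraries. These are called gained and lost, with no test of single regions, because the smallest exact two-sided p of 3 against 3 libraries is 0.1. All 6 libraries shared 37392 regions. Most gained and lost regions were weak: the median of the mean rank in the group that held them was 62514 for gained and 59277 for lost regions, and 146 and 73 had a mean rank within the top 20000. Most also had a weaker summit in the other group, since 1095 gained regions held no siNC summit of any rank and 265 lost regions no siNfib summit of any rank. A kept summit of the other group lay within 500 bp in 12% of gained and 12.4% of lost regions. With summits of a score of at least 10 in place of the top 100000, 4771 regions were gained and 355 lost.

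The strongest gained region lay in Zfp957, a zinc finger gene, at chr14:79214927-79215426, with siNfib ranks of 2140, 1306 and 1808. No siNC library kept a summit there, 1 siNC list held a weaker one, and no GNP, hyperplasia, tumor or untreated VDR library occupied it. A region in Sox5, a neural transcription factor, at chr6:144480976-144481475 had siNfib ranks of 3653, 2943 and 3489 and was likewise unoccupied in those groups. In Pawr, which encodes a pro-apoptotic protein, the region at chr10:108389805-108390304 ranked 3311, 3628 and 3452 in siNfib and 81116, 78131 and 61855 in siNfia. The region in Mrps28, a mitochondrial ribosomal protein, at chr3:8866129-8866628 ranked 2866, 3511 and 5066 in siNfib and was occupied in 3 hyperplasia and 3 tumor libraries but no GNP library. The fifth was at chr6:143367794-143368293, away from protein-coding genes, with siNfib ranks of 2680, 1925 and 3233. Of the gained regions absent from the whole siNC lists, the strongest was in Tle1, a Groucho co-repressor, at chr4:72160151-72160650. It ranked 3526, 4791 and 5004 in siNfib, was kept in no siNfia library and was occupied in all 9 libraries of GNP, hyperplasia and tumor. The next were in Frem1, an extracellular matrix protein at chr4:83045161-83045660 (5223, 4479 and 7088), and in Usp25, a deubiquitinase at chr16:77058518-77059017 (7067, 8204 and 7511). A region in Nrxn3, a presynaptic neurexin, at chr12:90132395-90132894 ranked 9645, 10701 and 4376 in siNfib and 50075, 45446 and 46050 in siNfia, and one assigned to Shq1, a snoRNP assembly factor, at chr6:100474272-100474771 ranked 7801, 8875 and 8161.

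Lost regions were led by C2cd4b, a gene with a C2 domain, where the region at chr9:67754584-67755083 ranked 4004, 10033 and 3628 in siNC and 10996, 13173 and 11925 in siNfia. All 3 siNfib lists held a summit there that was not kept. A second one in C2cd4b, at chr9:67717106-67717605, ranked 5045, 8463 and 5962 in siNC. In Mta3, a subunit of the NuRD remodelling complex, the region at chr17:83812660-83813159 ranked 5917, 6768 and 5962 in siNC and 9123, 19157 and 22630 in siNfia. No siNfib list held a summit of any rank there, while all libraries of GNP, hyperplasia, tumor and untreated VDR occupied it. Regions in Ptprm, a receptor tyrosine phosphatase, at chr17:67011761-67012260 (2873, 8463 and 12251 in siNC) and in Syn3, a synapsin of synaptic vesicles, at chr10:86100143-86100642 (5917, 8004 and 11009), completed the 5. After Mta3, the lost regions without any siNfib summit were near Cyth4, an ARF exchange factor, at chr15:78624919-78625418 (14210, 4614 and 14130 in siNC) and in Vapa, a tether of the endoplasmic reticulum, at chr17:65614262-65614761 (8297, 16902 and 26691). Then came Tcaf1, a TRP channel-associated factor, at chr6:42691783-42692282 (8297, 5751 and 40314) and Crlf2, a cytokine receptor, at chr5:109557231-109557730 (24968, 23065 and 13173). The Cyth4 region was kept in no siNfia library.

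Gained and lost regions differed in how often other libraries held them. Lost regions were occupied at 64.7% ± 3.38 in siNfia, 60.3% ± 2.33 in tumor, 55.5% ± 1.15 in GNP, 51.1% ± 2.36 in hyperplasia and 31.8% ± 5.42 in untreated VDR (SD, n = 3 libraries). For gained regions the shares were 20.8% ± 0.824, 27.6% ± 2.18, 29.4% ± 1.94, 30.4% ± 0.266 and 13.3% ± 1.88 in the same order. For all regions occupied in any of the 6 libraries they were 55.3%, 49.7%, 49.8%, 48.7% and 35.5%. Gained regions lay below that level in all 15 of these libraries. Lost regions lay above it in every library of GNP, hyperplasia, tumor and siNfia. In untreated VDR cells lost regions went the other way and lay below it in each library, with 33.7%, 25.7% and 36.0% against 36.4%, 31.6% and 38.5% of all regions. That level includes 20927 regions of 1 siNC library only and 8249 of 1 siNfib library only, whereas gained and lost regions needed 3. Regions occupied in all 6 libraries stood at 94.8% in siNfia, 85.6% in tumor and 85.6% in GNP. Whether lost regions exceed the level for a reason other than that requirement was not tested. Within 1 kb of a gene start lay 6.11% of gained (212 of 3469) and 5.01% of lost regions (114 of 2275), against 20.3% of the regions occupied in any of the 6.

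**Figure D4:**
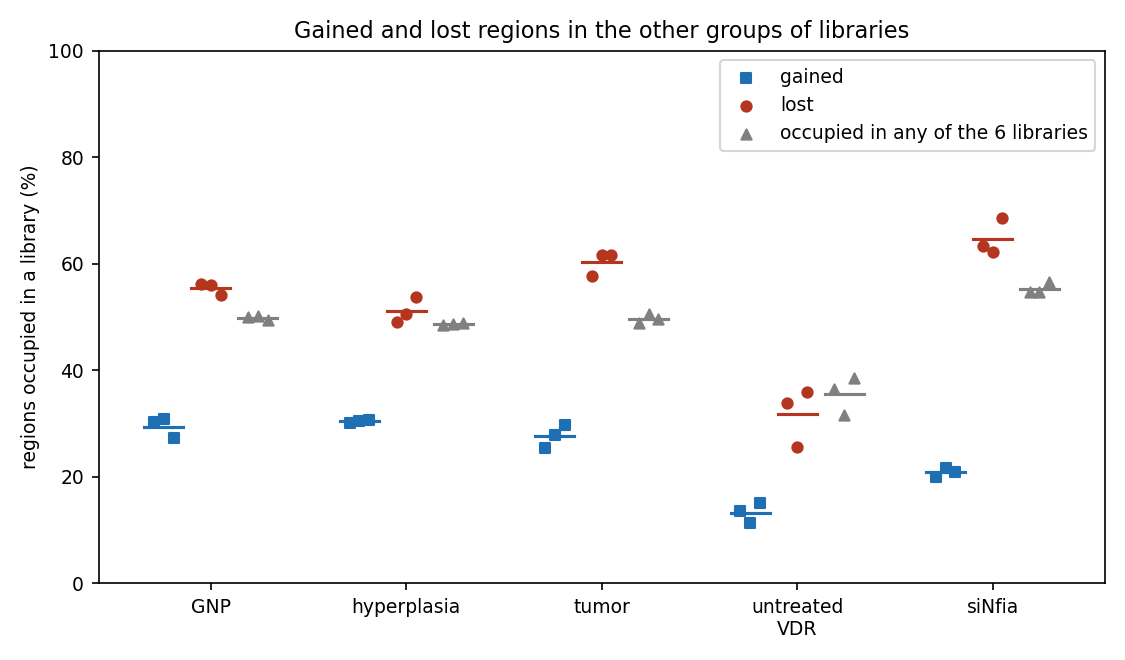
Share of gained, lost and all regions (y axis, %) occupied in each library of 5 groups outside the comparison (x axis); each point is 1 library and each line the mean of 3. Lost regions reach 68.5% in 1 siNfia library and gained regions stay at or below 30.8% in every library shown.

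The spread of the change over genes was wide. Gained regions fell to 2201 genes and lost regions to 1523. Auts2, a regulator of neuronal differentiation, had the most gained regions (11), followed by Nrxn3 (10), Trappc9 (9), Agap1 (8) and Gse1 (8). Dab1, the adaptor of Reelin signalling, had the most lost regions (7), followed by Fhit (6), Nkd1 (6), Brd7 (5) and Hivep3 (5). Several of these genes changed both ways. Auts2 also had 3 lost regions, Nrxn3 2 and Gse1 3, while Fhit also had 6 gained regions, Dab1 4, Nkd1 1 and Hivep3 1. Long genes hold many regions, and 3.33% of all regions were gained and 2.17% lost. The counts were not set against the number of regions per gene, so the order is a description. Regions of higher rank fell to 736 genes and were most frequent at Gse1, with 5 of its 69 ranked regions. Regions of lower rank fell to 1079 genes, with the most at Prkce, protein kinase C epsilon, where 8 of 33 ranked regions fell, and at Tcf20, a chromatin-associated co-regulator, where 6 of 24 fell. At Prkce the strongest of the 8 had mean ranks of 2329 in siNC, 2328 in siNfia and 11034 in siNfib.

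The NFI genes themselves, the targets of the 2 knockdowns and their relatives, had 85 ranked regions, of which 3 (3.53%) ranked higher and 7 (8.24%) lower after siNfib, beside 3.00% and 5.17% of all regions. Their median change was -0.16, beside 0.03 over all 33028 regions. Regions within 1 kb of a gene start were 36.5% of all, but 3.37% of the lower and 12.8% of the higher regions. The shares here and in the lists below were not matched for that distance. Away from gene starts, the share of lower regions was thus above 5.17% and that of higher regions above 3.00%. A list share above that of all regions may therefore not exceed the share there, and none is read as a surplus. The lists were written with earlier results of these data known, and the examples below were picked after their values were seen. Nfia had 4 lower and 0 higher of 25 regions. Its region at chr4:97618461-97618960 ranked 6428, 939 and 4035 in siNC, 2345, 4191 and 4859 in siNfia, and 21852, 25058 and 17983 in siNfib, where the score fell by 1.35 (SE 0.237, adjusted p 0.000234). The neighbouring region at chr4:97618966-97619465 ranked 14210, 7152 and 8256 in siNC and 21852, 51433 and 40690 in siNfib. Nfib had 2 lower and 2 higher of 34. The region at chr4:82532332-82532831, 25831 bp outside the gene body, ranked 3123, 1308 and 6413 in siNC and 34489, 22968 and 11665 in siNfib (change -1.36, SE 0.287, adjusted p 0.00175). A region inside Nfib at chr4:82335448-82335947 moved up, from 30723, 63345 and 67264 to 9645, 14592 and 21188 (1.53, SE 0.359, adjusted p 0.00469). Nfix had 1 in each direction of 21 and Nfic none of 5. The number of occupied regions did not separate the groups at these genes: Nfia had 48, 50 and 50 in siNC and 48, 52 and 48 in siNfib, and Nfib 115, 87 and 78 against 94, 82 and 77. Nfic had 15, 11 and 17 against 13, 17 and 14, and Nfix 33, 37 and 33 against 35, 33 and 35. The 9 genes listed as NFI-regulated in granule neurons had 25 ranked regions, of which none passed in either direction.

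Hedgehog pathway genes had 110 ranked regions, 4 higher (3.64%) and 9 lower (8.18%), beside 3.00% and 5.17% of all regions, with a median change of 0.01. These shares were not matched for distance to gene starts either. Of the receptors, Ptch1, which holds the pathway off without ligand, had a region at chr13:63556366-63556865 that ranked 24968, 17968 and 14130 in siNC, 16391, 19157 and 17946 in siNfia, and 49852, 51433 and 55456 in siNfib (change -1.26, SE 0.312, adjusted p 0.00762). The co-receptor Boc had 3 lower regions and 1 higher region. The one at chr16:44612597-44613096 ranked 4674, 1372 and 5350 in siNC and 19475, 18716 and 19514 in siNfib (change -1.19, SE 0.235). Hhat, the acyltransferase that modifies Hedgehog ligands, had a region at chr1:192789153-192789652 that went from 8297, 15901 and 11816 to 72210, 39739 and 37849 (change -1.55, SE 0.295). Gli2, the main activator among the Gli factors, moved in both directions. Its region at chr1:119022522-119023021 ranked 531, 348 and 1526 in siNC, 430, 1066 and 496 in siNfia, and 8376, 11118 and 15250 in siNfib (change -1.496, SE 0.187, adjusted p 1.69e-06). Its region at chr1:118910554-118911053 ranked 92715, 83545 and 57961 in siNC and 12931, 10701 and 13497 in siNfib (2.41, SE 0.413, adjusted p 0.00016), and 2 more Gli2 regions also ranked higher and 1 more ranked lower. Of the targets, Ccnd2, which encodes cyclin D2, had 2 lower regions. The stronger one, at chr6:127132560-127133059, went from 9058, 19092 and 33993 to 68253, 76979 and 97963 (change -2.28, SE 0.432). Region counts of Ptch1 (19, 16 and 14 in siNC, 15, 13 and 16 in siNfib), Gli1 (5, 6 and 5 against 4, 5 and 7), Gli2 (67, 63 and 53 against 63, 60 and 56), Mycn (15, 13 and 15 against 13, 15 and 13) and Ccnd1 (11, 11 and 10 against 10, 9 and 8) all overlapped between the groups.

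Synaptic adhesion genes had 20 lower (13.2%) and 8 higher (5.30%) of 151 regions, axon guidance genes 18 (8.11%) and 5 (2.25%) of 222, and matrix and integrin genes 8 (11.1%) and 1 (1.39%) of 72, beside 5.17% lower and 3.00% higher of all regions. Their median changes were -0.11, -0.05 and -0.12. Beside Cntn6 and Lrrtm1, the synaptic scaffold Dlg2 and the teneurin Tenm4, a transsynaptic adhesion protein, fell at 3 and 4 regions. The Tenm4 region at chr7:96577173-96577672 ranked 15583, 4182 and 9200 in siNC and 58064, 54299 and 64364 in siNfib (change -2.08). Another Tenm4 region, at chr7:96796795-96797294, rose from 15583, 6768 and 6413 to 3311, 2343 and 2721 (0.70, adjusted p 0.0362). Teneurin Tenm2 rose at 3 regions and fell at 1. It rose at chr11:36225710-36226209 from 48845, 58163 and 67264 to 4462, 3878 and 3966 (2.54) and fell at chr11:36176087-36176586 from 4322, 5751 and 4625 to 18745, 18716 and 22969 (change -1.03). Of the matrix genes, Timp3, a metalloprotease inhibitor, fell at chr10:86321112-86321611 from 7620, 11263 and 10246 to 72210, 76979 and 90670 (change -2.70, SE 0.38, adjusted p 1.01e-05). There the siNfia libraries had ranks of 54690, 55310 and 61855, and the siNfia score was -1.94 from siNC (adjusted p 0.00577). The higher region of the matrix list was also in Timp3, at chr10:86302681-86303180, which went from 92715, 63345 and 38618 in siNC to 19475, 19514 and 22619 in siNfib (1.55, SE 0.38, adjusted p 0.00726).

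Granule progenitor identity genes had 5 higher (5.32%) and 2 lower (2.13%) of 94 regions. A region near Lhx2, a LIM homeobox factor, rose from 55773, 75762 and 48147 to 7801, 16532 and 17703 at chr2:38423802-38424301 (1.79, SE 0.374, adjusted p 0.00163). A region of Pax6, a granule lineage factor, rose from 55773, 53592 and 32619 to 12458, 17952 and 17703 at chr2:105673631-105674130 (1.24). One near Atoh1 fell from 43152, 24577 and 35445 to 86843, 68148 and 61647 at chr6:64732755-64733254 (change -1.25, adjusted p 0.0399). Granule neuron maturation genes had 7 higher (3.76%) and 13 lower (6.99%) of 186 regions. Over all regions these shares were 3.00% and 5.17%.

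In the signalling, cell cycle and regulator lists the counts were as follows, beside 3.00% higher and 5.17% lower of all regions: Notch 4 higher and 3 lower of 90, Wnt 3 and 2 of 94, TGF-beta and BMP 2 and 3 of 73, TEAD and Hippo 0 and 2 of 31, cell cycle 3 and 5 of 66 (4.55% and 7.58%), AP-1 and immediate early 1 and 1 of 58, chromatin regulators 3 and 4 of 107, Sox factors 0 and 2 of 34, and cell cycle inhibitors 0 and 0 of 47. Of these lists, cell cycle, TEAD and Hippo, and Sox had a share of lower regions above that of all regions, each from 5 or fewer regions. The Notch ligand Jag1 fell at chr2:137109809-137110308 from 604, 565 and 1339 in siNC to 8376, 5266 and 6445 in siNfib (change -1.07, SE 0.172, adjusted p 7e-05). Tead4, a factor of the Hippo pathway, fell at chr6:128296161-128296660 from 14210, 8463 and 12700 to 68253, 82146 and 68691 (change -2.32, SE 0.306). Lists of other cell types changed at single regions: neural stem and glial progenitor 0 and 1 of 29, astrocyte 0 and 1 of 15, endothelial and mural 1 and 0 of 14, fibroblast and mesenchyme 0 and 1 of 30, and oligodendrocyte and microglia 0 and 0 of 17 and 7. The fibroblast list's region was in Prrx1, a mesenchymal homeobox gene, and ranked 696, 760 and 877 in siNC and 10765, 3745 and 8900 in siNfib.

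**Figure D5:**
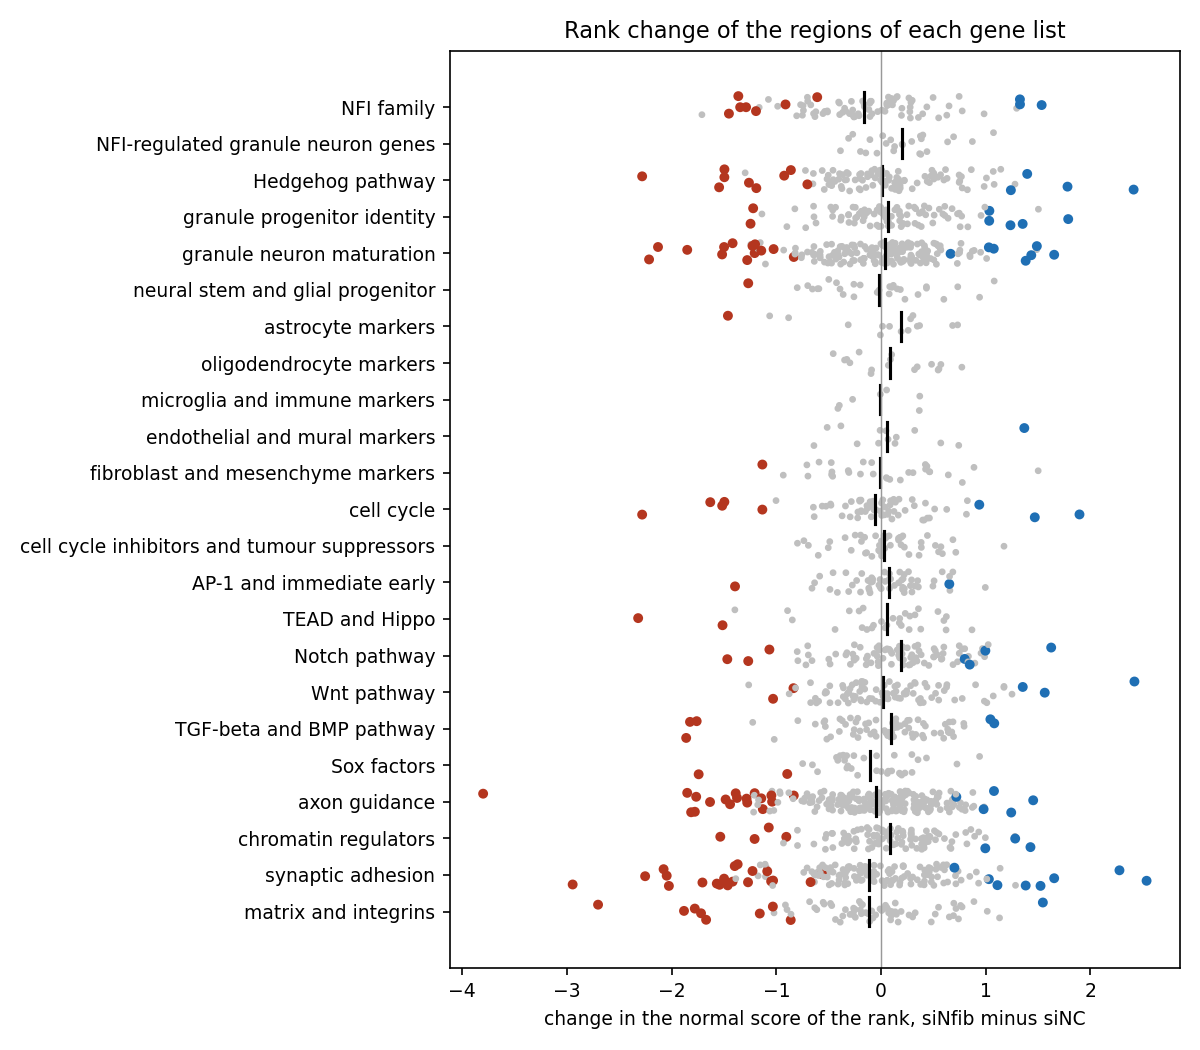
Change in the normal score of the rank (x axis, siNfib minus siNC) for each ranked region of the 23 gene lists (rows). Grey points did not pass, red points ranked lower and blue points higher at an adjusted p below 0.05, and black lines are the list medians, which lie close to 0 beside changed regions on both sides.

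Counting occupied regions per gene gave fewer and less stable calls. Of 6668 genes with a mean of at least 3 regions, 66 (0.990%) had more occupied regions in siNfib and 57 (0.855%) had fewer (limma on log2 of the count plus 1, adjusted p below 0.05), and region counts did not overlap in 878 genes (13.2%). Without siNfib 1, 2 or 3 only 3, 2 and 1 genes passed, without siNC 2 there were 15, and with whole lists 1. The score at rank 100000 as a covariate left 0 genes in limma, with 831 at an unadjusted p below 0.05. Prdm16, a zinc finger co-regulator, had 6, 7 and 7 regions in siNC, 7, 6 and 6 in siNfia and 3, 3 and 3 in siNfib (log2 change -0.94, SE 0.0833, adjusted p 0.0145). Rasgrf1, a Ras exchange factor, had 10, 12 and 10 in siNC, 14, 11 and 13 in siNfia and 5, 5 and 4 in siNfib (-1.04). Rptor, the mTORC1 scaffold, fell from 13, 9 and 9 to 4, 4 and 3. The others among the 10 largest decreases were Bgn, Zfp618, Rasal1, Fam169b, Tasp1, Galnt5 and Gpbp1, with changes from -1.26 to -0.89.

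Increases were led by Nanog, a pluripotency factor, with 2, 2 and 1 regions in siNC and 6 in each siNfib library (log2 change 1.42, SE 0.217, adjusted p 0.0309). Diaph3, a formin of the actin cytoskeleton, rose from 6, 5 and 4 to 10, 12 and 13. Akr1d1, a steroid reductase, rose from 2, 2 and 2 to 5, 6 and 5 and had 5, 6 and 4 in siNfia. Spag1, Dad1, Cd247, Cacna1h, Mthfs, Oxct1 and Scrn1 completed the 10, with changes from 0.95 to 1.34. Of all 6668 genes, 77 (1.15%) had more regions in siNfib than in siNfia and 59 (0.885%) had fewer. Among them were 6 of these 20 genes, namely Cd247, Cacna1h, Oxct1, Rasgrf1, Prdm16 and Galnt5, but the 20 were chosen for extreme values in the same siNfib libraries, so their number says nothing beyond that choice. Of the 272 listed genes tested, 5 had more regions and 2 fewer, beside 0.990% and 0.855% of all genes. More regions were counted at the Notch ligand Dll1 (7, 8 and 7 to 10, 10 and 10), the Notch co-activator Maml3 (21, 19 and 22 to 30, 28 and 26), the ephrin Efnb1 (3, 3 and 3 to 5, 5 and 5), the adhesion molecule Ncam1 (13, 11 and 11 to 17, 16 and 18) and the Slit receptor Robo2 (19, 19 and 19 to 27, 28 and 31). The contactin Cntn2, which marks early granule neurons, fell from 6, 7 and 7 to 4, 4 and 4, and the semaphorin Sema5a from 26, 25 and 26 to 19, 20 and 20. The log2 change turned to -0.22 for Ncam1 with the top 50000 summits, and to 0.38 for Cntn2 and 0.18 for Sema5a with summits of a score of at least 10. Sox2, a stem cell factor, had 5, 5 and 7 regions in siNC and 4, 3 and 3 in siNfib and did not pass (adjusted p 0.1).

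Whole lists were compared by their shared regions. The Jaccard index of occupied regions, the share of the joint regions that 2 libraries hold in common, averaged 0.74 among siNfib libraries, 0.614 among siNC libraries and 0.595 between the groups. The index within groups exceeded that between groups by 0.0814 (one-sided exact permutation test, p 0.1, which is the lowest value of 10 splits). It averaged 0.595 between siNfib and siNfia and 0.6 between siNC and siNfia. The share of kept summits within 1 kb of a gene end was 28.4%, 30.8% and 32.2% in siNC and 31.5%, 31.8% and 32.8% in siNfib, a difference of 1.60 percentage points that did not exceed the spread (exact two-sided permutation p 0.3, smallest 0.1). With summits of a score of at least 10 the difference turned to -3.36 points.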

How the data were processed

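ATAC-seq summits came from 21 libraries, 3 in each of 7 groups named by the labels. Bowtie2, Picard, MACS2 and the mm10 build are named in the submitters' processing notes, with no versions. In the lists that the authors deposited, column 5 holds a −log10 value, as MACS2 writes it per peak, and the sources used here do not say whether of a p or of a q value. Protocols in the labels describe Omni-ATAC. Replicates were called separately, per the labels, and read depth is unknown.

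From each list the 100000 highest summits were taken, over chromosomes 1 to 19, X and Y. Many summits share a score (161 to 581 distinct scores in a kept siRNA list), so tied summits were put in a random order with a fixed seed, and printed ranks are the mean ranks of ties. Regions of 500 bp were made from the best-ranked summits of all 21 libraries without overlap. Of the kept summits of an siRNA library 79.2% to 80.7% lay in one, and 80.3% to 86.9% in the other libraries. Genes came from RefSeq on GRCm38.p6, with 21887 protein-coding genes, and 89.4% of regions had a gene. The table of gene starts and promoters leaves out chromosome 18.

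Both readouts were fitted with limma 3.58.1 (R 4.3.3, trend) over the 9 siRNA libraries, with Benjamini-Hochberg adjustment over all features: the normal score of the rank in regions occupied in all 9, and log2(occupied regions + 1) in genes with a mean of at least 3 over the 6 libraries. Folds of counts are on that scale, which understates the change of genes with few regions. Regions without overlap of groups were counted, and list similarity and gene-end shares had exact permutation tests over libraries. Both fits were run on simulated data with independent noise and changes set in advance. The simulation had no difference in list strength between groups and no tied ranks, so it does not bear on either. Tables were handled in Python 3.11.15 with numpy 2.4.6, pandas 2.3.3, scipy 1.17.1 and numba 0.67.0.

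The rule for names took, per direction, 10 genes of largest change among those that passed and whose groups did not overlap, genes of the NFI, Hedgehog and granule lineage named whatever their values, listed genes that passed, the 5 gained and 5 lost regions of best mean rank, with and without summits of any rank in the other group, the 5 genes with the most of them, and the 5 regions in each direction with the largest rank change, 1 per gene. Examples from lists, the strongest changed regions and the promoters were chosen after their values were seen, the promoters from the 4 leading windows of each set. The members and lists were chosen with earlier results of these data known. Alternatives covered list length, a score minimum, region width, gene assignment, the libraries in the fit, the strength of the lists, the replicate block, filters, pseudocounts and each library left out. Another order of tied summits, and siNC 1 and siNfib 3 left out together, were added after seeing the data.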

Additional observations from a re-analysis of the deposited data

How the results depend on the processing

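Rank changes held their direction wherever a region had a value. The 10 named regions passed under all 137 alternative values, and of 2167 values for 151 further regions 1778 passed, 389 did not and none reversed. A region has no value under a setting in which a library of the fit kept no summit there. The 10 ranked past 50000 in siNC or siNfib, so the top 50000 gave them no value. The Agbl1 region had 12 values and the chromosome 4 region 13, while some further regions had 15. The 10 were also chosen as extremes of the same libraries. The 2698 changed regions became 1187 with the top 50000, 4414 with whole lists, 1376 with the list strength as a covariate, 1461 (467 higher, 994 lower) without siNC 1 and siNfib 3, and 1730 to 2329 with 1 library left out. With log2 ranks 1091 were higher and 1384 lower. Gained regions numbered 2055 with the top 50000, 7181 with whole lists, 4771 at a score of at least 10, 1095 without an siNC summit of any rank, 5702 without that pair of libraries and 4371 to 5060 with 1 library left out. Lost regions numbered 355 at a score of at least 10, 265 without an siNfib summit of any rank, 4929 without the pair and 2838 to 3935 with 1 library left out.

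Gene calls depended on most settings. The 123 genes became 1 with whole lists, 0 at a score of at least 10 (limma, 1126 at an unadjusted p below 0.05), 0 with 12 VDR libraries in the fit (706), 0 with the list strength as a covariate (831), 64 by gene body alone, 262 without a filter, 5 without the pair and 1 to 88 with 1 library left out. In another order of tied summits 104 passed, of which 79 were among the 123, and in list order 84, of which 70 were. The 7 listed genes became 0 with whole lists, at a score of at least 10, with 12 libraries, with the covariate and without the pair, 4 by gene body and in either other tie order, and 0 to 5 with 1 library left out. The 6 named genes that differed from siNfia became 3 with the top 50000 and with 12 libraries, 2 with whole lists, 0 at a score of at least 10 and with the covariate, and 0 to 7 with 1 library left out. Signs turned for Cntn2 (0.38), Fam169b (0.20) and Sema5a (0.18) at a score of at least 10, Mthfs (-0.0099) with whole lists and Ncam1 (-0.22) with the top 50000. The Jaccard difference was 0.0486 to 0.127 with 1 library left out, and the gene-end difference 0.577 to 2.46, and -3.36 at a score of at least 10.

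With the replicate number as a block, 2807 regions passed, and 0 genes (1102 at an unadjusted p below 0.05), 0 listed genes and 0 of those that differed from siNfia. Same-number correlations of deviations were small, at 0.0242, 0.0106 and 0.0465 for ranks and 0.0527, -0.0137 and 0.0617 for genes. Between other numbers they lay from -0.035 to 0.00607 for ranks and from -0.0721 to 0.0246 for genes. Each library correlated best with its own number for ranks, but siNC 2 and siNfib 2 did not for genes. Whether the numbers pair the libraries was not settled. The cause of these shifts was not tested.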

Other observations

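Gains and losses often fell to the same gene. Of 2201 genes with a gained region and 1523 with a lost region, 462 had both, which is a description, since long genes hold many regions. Fhit, a fragile-site gene that encodes a nucleotide hydrolase, had 6 of each, Dab1 had 4 gained and 7 lost, and Rbfox1, a neuronal splicing factor, had 4 of each. Regions of higher and of lower rank fell together in 172 genes, of 736 and 1079.

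The strongest summits of VDR cells lay on few chromosomes. Chromosomes 1, 4, 6, 8, 15 and 17 held 67.4% to 68.9% of the 1000 best-ranked regions in untreated VDR libraries and 69.8% to 76.7% in the 9 siRNA libraries. In GNP libraries the share was 33.7% to 34.2%, and in tumors 43.4%, 43.1% and 38%. Chromosome 6 alone held 16.7%, 18.3% and 19.7% in siNC, 18.1%, 18.5% and 18.5% in siNfib, 17.4%, 18.2% and 10.6% in tumors and 5.1% to 5.4% in GNP.

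Gli2 had 294, 353 and 290 occupied regions in untreated VDR libraries and 53 to 67 in siNC libraries. Untreated and siNC cells are both VDR cells without an NFI knockdown, and the cause of that difference was not tested.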
